A study of Mus musculus with 4 samples.

Results

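The genes described here encode the proteasome: its 20S core, the inducible subunits of the immunoproteasome, the 19S cap, the activators and inhibitor that bind the core, and the dedicated assembly chaperones. Members were every gene of the count table whose symbol begins with Psma to Psmg followed by a number, and 47 of 15835 genes matched. Of these 47, 46 passed the filter on low counts that left 7700 genes for testing. They comprised 7 alpha and 7 constitutive beta subunits of the core, 3 immunoproteasome subunits, the thymus subunit Psmb11, 6 ATPases and 11 other subunits of the 19S cap, 3 chaperones of the cap, 4 chaperones of the core, and 5 activators or inhibitors.

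The libraries were made from group 2 innate lymphoid cells (ILC2), lymphocytes that live in tissues and secrete type 2 cytokines, of the islets of Langerhans in the pancreas. All mice carried the C57BL/6j genotype, and one group was fed while the other had been fasted; the sources used here state neither the length of the fast nor the age of the mice. RNA ending in polyA was sequenced by CEL-seq2, a barcoded method that counts the 3′ ends of transcripts, in 4 fed and 4 fasted libraries numbered 1, 3, 4 and 5 in each group. The labels do not tie a library to a mouse. The p-values then reflect only how far these 8 libraries spread, and that spread may be technical.

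The proteasome is the main protease of the cytosol and nucleus. The alpha and beta rings of the 20S core enclose the catalytic sites, and the 19S cap recognises ubiquitin chains, removes them and unfolds the substrate with its ring of ATPases. In lymphocytes, and in other cells exposed to interferon gamma, the catalytic subunits Psmb5, Psmb6 and Psmb7 can be replaced by Psmb8, Psmb9 and Psmb10 in newly assembled cores, which changes the peptides that are made available for MHC class I molecules.

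Library totals ran from 1797504 to 25252366 counts, and 9537 to 14056 genes had at least 1 count. RNA of pancreatic acinar cells, the cells that make digestive enzymes, was followed by 20 marker genes only, here called acinar transcripts. These took 29.8, 35.8, 52.9 and 48.1% of counts in fed libraries 1, 3, 4 and 5. In the fasted libraries of the same numbers they took 2.32, 2.60, 49.7 and 52.9%. Fasted libraries 1 and 3 therefore stood apart as acinar-poor. Fold changes printed here that turned or moved by over 1.5 times without them are given both ways. Of 13 ILC2 markers, 12 had counts in every library and Rora in 3, and the list held 0.11 to 0.61% of counts. Marker lists of T, B, myeloid and NK cells, of islet endocrine cells and of stroma each held at most 0.0170% of any library. Of these lists, 2 of 8 T cell, 1 of 5 B cell, 1 of 11 islet and 4 of 7 stroma genes had counts in every library. No myeloid or NK gene did, and the count table held only 6 of 9 and 3 of 6 of them. Levels are CPM, counts over library size on the usual common scale, with library sizes corrected by the trimmed mean of M values (TMM, factors of 0.54 to 2.11). Levels are not compared between genes. In bulk RNA, fewer cells of a type and less RNA per cell cannot be told apart.

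Promoter stretches are shown for the 5 members whose upstream sequence held the core of an antioxidant response element, TGACNNNGC, because Nfe2l1, the transcription factor that restores proteasome subunits when the protease is inhibited, binds elements of this kind. RefSeq promoter windows (GRCm38.p6) were matched by symbol for 40 of 47 members, with 43 windows, and the 250 bases before each start were searched on both strands. Capitals mark the match, each stretch is written 5′ to 3′ on the strand of its gene, and in Psmc6 and Psmd12 the match reads on the opposite strand.
Psmb5 (chr14:54618024-54618052, minus strand): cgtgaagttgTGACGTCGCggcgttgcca
Psmb6 (chr11:70525338-70525356, plus strand): ctaaagagagTGACGGAGC
Psmd9 (chr5:123228149-123228177, plus strand): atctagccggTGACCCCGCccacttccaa
Psmc6 (chr14:45329587-45329615, plus strand): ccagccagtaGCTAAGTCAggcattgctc
Psmd12 (chr11:107479278-107479299, plus strand): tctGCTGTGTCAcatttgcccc
The stretches of Psmb5, Psmb6, Psmc6 and Psmd12 lay outside any gene of GENCODE vM21, and that of Psmd9 lay in introns of Psmd9 and of Gm26745 on the opposite strand. The motif was present in 11.6% of the member windows and in 10.2% of all 32851 windows. A gamma-activated sequence, TTCNNNGAA, an element of interferon gamma target genes, was found in 2 member windows, those of Psmb8 and Psmg1, or 4.65% against 7.02% of all windows. The RefSeq start of Psmb8 lies inside the longer GENCODE gene, and its match falls in an annotated 5′ UTR exon. The core of the interferon-stimulated response element, GAAA followed by any 2 bases and GAAA, was found in the windows of Psmb3, Psmd4 and Psmd9, 6.98% against 2.98% of all windows. The CCAAT box was found in 14 member windows, 32.6% against 33.8%. A match is a description of these letters and not a bound site.

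Fasting was compared with feeding first over the whole set. No member passed the test, and none of the 7700 tested genes did either (edgeR's quasi-likelihood test with Benjamini-Hochberg adjustment, 0% called). At an unadjusted p under 0.05 the same fit held 338 genes, 4.39% of those tested, and 2 of the 46 tested members, Psmb10 and Psmd14. Of the member fold changes, 43 of 46 were within 0.5 of no difference on the log2 scale, as were 5458 of 7700 tested genes. The median standard error was 0.27 for the members and 0.45 for all tested genes, so these counts are not like for like. The member fold changes ran from -0.88 for Psmd14 to 0.44 for Psmd5. Of the 46, 15 were positive and 31 negative with a median of -0.15, against 3835 positive and 3865 negative with a median of -0.00 over all tested genes. The lowest adjusted p of a member was 0.87 (Psmb10, edgeR), and over all alternatives the lowest was 0.486 with limma-voom. Scaling by library totals alone moved the median of all tested genes to 0.51 and that of the members to 0.29, with 38 members positive and 8 negative, so on that scale the members' median lay below that of all genes while its sign was turned.

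**Figure D1:**
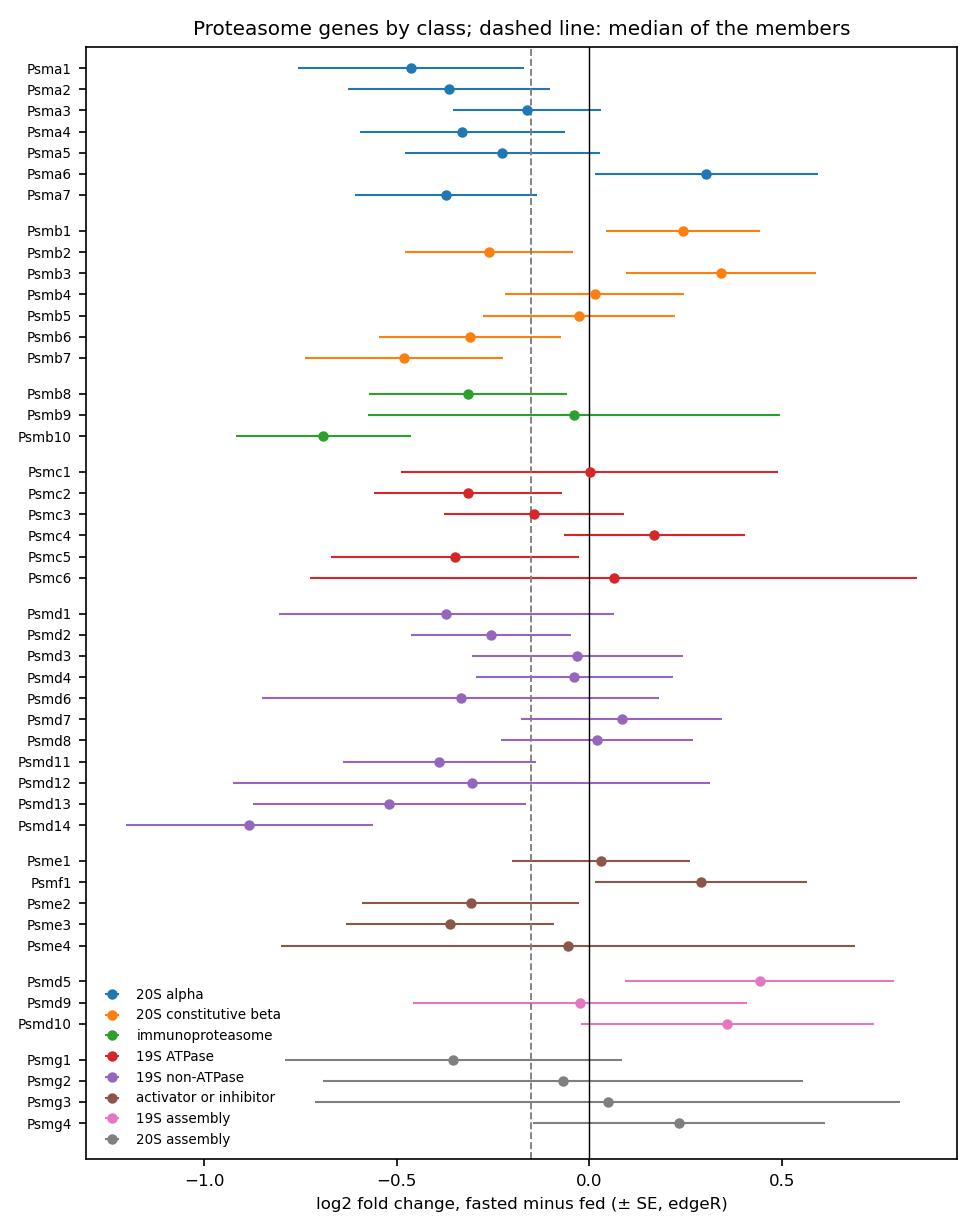
Log2 fold change, fasted minus fed, of the 46 tested proteasome genes with its standard error (edgeR, 4 libraries a group), arranged by role in the complex, with the median of the members as a dashed line. Most points lie to the left of 0, the lowest being Psmd14 at -0.88 and the highest Psmd5 at 0.44, and no member passed the test.

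The labels do not say what the library numbers mark. Libraries of the same number were also compared side by side, and are called pairs for that comparison. Their deviations from the group means had correlations of 0.25, 0.16, 0.53 and 0.14. Some libraries of unlike number correlated as much, fed 4 with fasted 5 at 0.24 and fed 1 with fasted 3 at 0.22. In pairs 1 and 3 acinar transcripts took 29.8 and 35.8% of counts in the fed library and 2.32 and 2.60% in the fasted one. On the TMM scale 12 of 46 members (26.1%) were lower in the fasted library of every one of the 4 pairs, against 8.19% of all tested genes. These were Psma1, Psma4, Psmb2, Psmb6 and Psmb7 of the core, Psmb8 and Psmb10 of the immunoproteasome, and Psmc2, Psmd2, Psmd11, Psmd13 and Psmd14 of the cap. Psmb1 alone (2.17%) was higher in every pair, against 9.38% of all tested genes. The count of lower members was 14 with DESeq2 size factors, 5 when each library was divided by its total without acinar transcripts and 1 with library totals alone, while the all-gene shares were 8.74, 5.79 and 2.84%. With the pair number as a replicate block, 535 genes had an unadjusted p under 0.05 and still none passed the adjusted threshold. Without the block, leaving out fasted library 4 raised the 338 genes to 561.

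Without the acinar-poor fasted libraries, 18 of 46 member fold changes stayed within 1.5 times of their value and 28 did not, of which 7 turned sign (Psmb3, Psmb4, Psmd3, Psmd6, Psmd12, Psme1 and Psme4). The median over the members was -0.16 in that fit and -0.15 with all libraries. By class it was -0.32 for the alpha, -0.16 for the constitutive beta, -0.56 for the immunoproteasome and -0.10 for the 19S subunits, and -0.03 for the activators and inhibitor.

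The summed level of the members was compared on 3 scales. On the TMM scale it was 2151, 2133, 2034 and 2234 CPM in fed libraries 1, 3, 4 and 5 and 1962, 2064, 1750 and 2024 CPM in the fasted ones. The means were 2138 ± 82.2 CPM fed and 1950 ± 140 CPM fasted (SD, n = 4). With TMM the sum was lower in the fasted library of all 4 pairs, and the groups overlapped. Over all counts, without TMM factors, the sums were 2683, 2692, 1090 and 1556 CPM fed and 4107, 4153, 1211 and 1140 CPM fasted. On that scale the acinar-poor fasted libraries 1 and 3 were the highest of all, and the 4 libraries richest in acinar transcripts were the lowest. With the acinar marker genes left out of the totals the sums were 3821, 4195, 2313 and 2998 CPM fed and 4205, 4264, 2407 and 2418 CPM fasted. Any other acinar RNA stayed in those totals. Libraries 1 and 3 of both groups stood above libraries 4 and 5. On both scales without TMM factors the fasted sum was higher in pairs 1, 3 and 4 and lower in pair 5, so its direction depended on the scaling. The part of acinar RNA in the fold changes of single members was not tested beyond the values with and without the acinar-poor libraries.

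**Figure D2:**
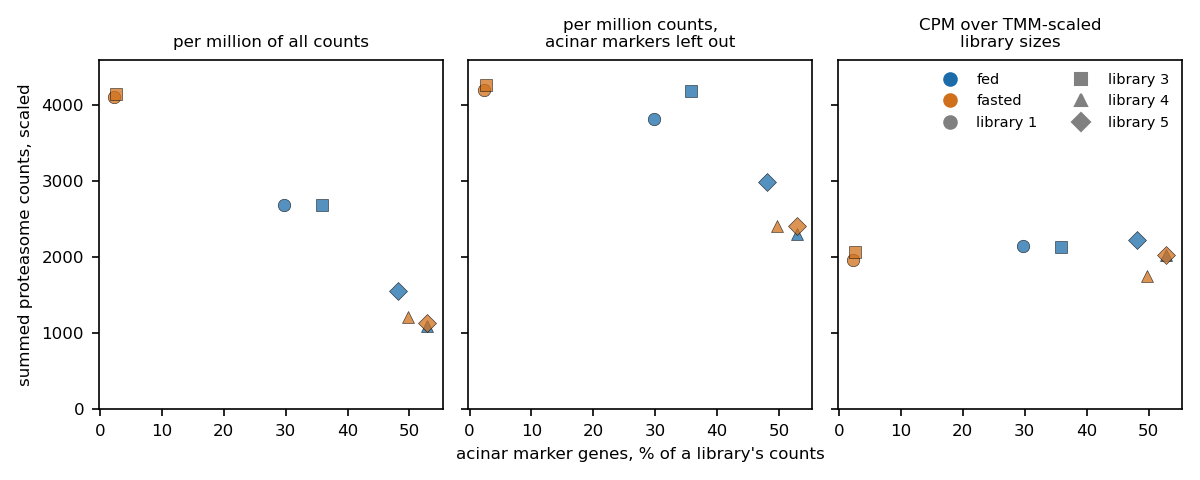
Summed counts of the 47 proteasome genes per library against the share of acinar marker genes in all counts (percent). The 3 scales are CPM of all counts, CPM without acinar marker genes, and TMM-scaled CPM. Over all counts the sum is 4107 and 4153 CPM in the acinar-poor libraries and 1090 to 2692 CPM in the others, while the TMM-scaled sums of both groups lie between 1750 and 2234 CPM.

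In the core, the 7 alpha subunits, which form the outer rings and gate the entry pore, were mostly lower after fasting without passing the test: 6 were negative and 1 positive, with a median log2 fold change of -0.33. Psma1 had means of 17.0 ± 3.16 CPM fed and 12.4 ± 2.43 CPM fasted, with a log2 fold change of -0.46 ± 0.29 (SE). Psma2 and Psma7 each had a log2 fold change of -0.37, Psma4 of -0.33, Psma5 of -0.23 (-0.43 without the acinar-poor libraries) and Psma3 of -0.16. Psma6 was the positive one, at 17.4 ± 4.40 CPM fed and 21.6 ± 3.88 CPM fasted and a log2 fold change of 0.30 ± 0.29. With library totals alone the median of the alpha subunits was 0.24, against 0.51 for all genes.

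The 7 constitutive beta subunits divided, with 3 positive and 4 negative values and a median of -0.03 (0.49 with library totals alone). Psmb3, a structural subunit of the inner ring, was at 171, 175, 203 and 254 CPM in fed libraries 1, 3, 4 and 5 and at 327, 302, 176 and 212 CPM in the fasted ones. Its fasted libraries 1 and 3, the acinar-poor ones, were above every fed library, while fasted 4 and 5 lay within the fed range. The log2 fold change was 0.34 ± 0.25 and became -0.05 without those libraries and 0.03 with the acinar share as a covariate.

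Psmb1, another structural subunit, was at 87.0, 75.1, 78.9 and 92.1 CPM fed and at 114, 97.6, 81.3 and 101 CPM fasted. The groups overlapped only through fasted library 4. Its log2 fold change was 0.24 ± 0.20, and 0.13 without the acinar-poor libraries. Psmb2 was at -0.26, and Psmb4 at 0.01 and, without those libraries, at -0.20.

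The 3 catalytic subunits of the constitutive core are Psmb6 (caspase-like activity), Psmb7 (trypsin-like) and Psmb5 (chymotrypsin-like). Psmb5 was at 29.0, 29.8, 26.3 and 31.9 CPM fed and at 30.9, 27.9, 20.6 and 35.3 CPM fasted, a log2 fold change of -0.03 ± 0.25 (-0.07 without the acinar-poor libraries). Psmb6 was at 70.9, 61.3, 55.1 and 81.9 CPM fed and at 45.4, 50.2, 48.9 and 72.0 CPM fasted. All 4 fasted libraries of Psmb6 lay below the fed library of the same number, but the groups overlapped, and the log2 fold change was -0.31 ± 0.24, or -0.16 without the acinar-poor libraries.

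Psmb7 was at 67.8, 64.4, 49.4 and 56.5 CPM fed and at 26.9, 45.9, 42.8 and 54.6 CPM fasted. The lowest value was that of fasted library 1 and the groups overlapped. The log2 fold change was -0.48 ± 0.26 (unadjusted p = 0.087, adjusted p = 1.00, edgeR), and -0.32 without fasted library 1 and -0.29 without both acinar-poor libraries. With library totals alone Psmb5 and Psmb6 turned to 0.49 and 0.10, while Psmb7 stayed negative at -0.15. Psmb5, Psmb6 and Psmb7 each have a pseudogene named after them, and exons of Psmb7 lie over exons of Nek6 on the opposite strand; the sources used here do not state how the counting treated such reads.

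The immunoproteasome subunits had 3 negative values of 3, with a median of -0.32 (0.28 with library totals alone). Psmb10 (chr8:105935735-105938444, minus strand, GENCODE vM21), which replaces Psmb7, was at 185, 189, 271 and 263 CPM in fed libraries 1, 3, 4 and 5 and at 132, 123, 125 and 183 CPM in the fasted ones. Every fasted library lay below every fed library, with fasted 5 just under fed 1. Such a separation in the lower direction was seen in 1 of 46 members and in 1.31% of all tested genes, and in the higher direction in 0 members and 2.21% of all genes.

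The means of Psmb10 were 227 ± 46.6 CPM fed and 141 ± 28.5 CPM fasted (SD, n = 4). The log2 fold change was -0.69 ± 0.23 (unadjusted p = 0.011, adjusted p = 0.87, edgeR), so it did not pass the test. It was -0.56 ± 0.32 without the acinar-poor fasted libraries, ran from -0.85 to -0.60 when 1 library was left out, and was -0.16 with library totals alone. Psmb10 thus had a negative value in each of these fits, the size of which depended on the scaling.

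Psmb8 (chr17:34197721-34201454, plus strand), which replaces Psmb5, was at 172, 125, 94.4 and 178 CPM fed and at 139, 124, 87.8 and 106 CPM fasted. The fasted library was the lower one in all 4 pairs, if only just in pair 3, and the groups overlapped. The log2 fold change was -0.32 ± 0.26, -0.56 without the acinar-poor libraries, -0.19 without fed library 5 and 0.28 with library totals alone.

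Psmb9 (chr17:34181987-34187764, minus strand), which replaces Psmb6, was at 2.68, 3.38, 3.03 and 8.22 CPM fed and at 5.61, 4.29, 2.40 and 4.36 CPM fasted. Fed library 5 was far above the other fed libraries, and the log2 fold change was -0.04 ± 0.54. It was 0.45 without that library and -0.35 without the acinar-poor fasted libraries. Psmb9 lies next to Tap1, which encodes a chain of the peptide transporter of the endoplasmic reticulum, and their exons overlap on opposite strands. Psmb11, the beta subunit of thymus epithelium, had 2 counts in fed library 4, 6 in fed library 5 and 0 in the other 6 libraries, and was not tested.

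**Figure D3:**
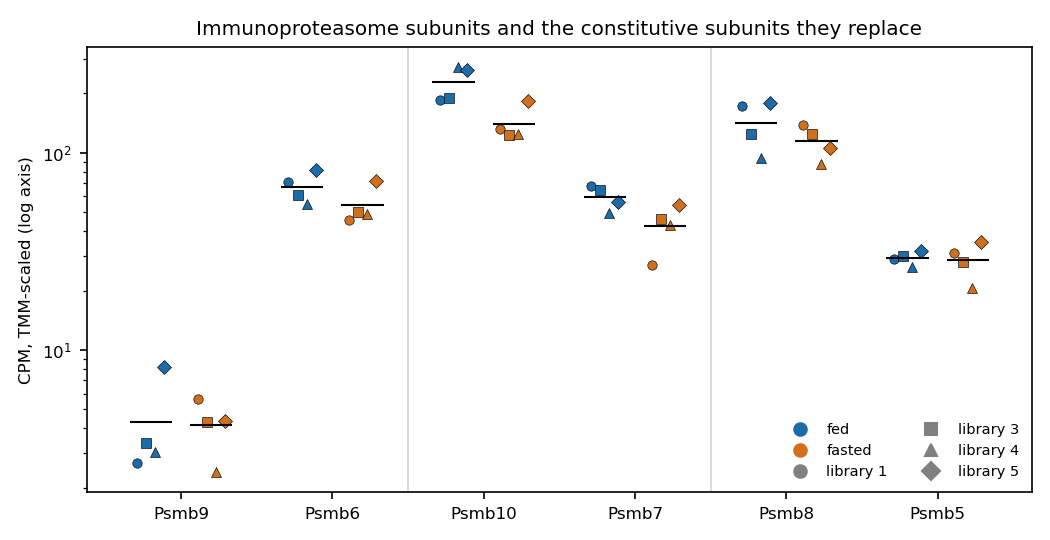
TMM-scaled CPM (log axis) of the constitutive subunits Psmb5, Psmb6 and Psmb7 and of the immunoproteasome subunits that replace them, Psmb8, Psmb9 and Psmb10, in each fed and fasted library, with arithmetic means as bars. Psmb10 is the subunit whose fasted libraries (123 to 183 CPM) all lie below its fed libraries (185 to 271 CPM).

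The exchange of catalytic subunits was compared as a ratio within each library, which does not depend on the scaling. The ratio of Psmb10 to Psmb7 was 2.73, 2.93, 5.49 and 4.66 fed and 4.90, 2.68, 2.92 and 3.35 fasted. That of Psmb8 to Psmb5 was 5.92, 4.19, 3.59 and 5.59 fed and 4.5, 4.44, 4.25 and 2.99 fasted. That of Psmb9 to Psmb6 was 0.0377, 0.0552, 0.0550 and 0.10 fed and 0.124, 0.0856, 0.0491 and 0.0605 fasted. All 3 ratios overlapped between the groups. The log2 differences, fasted minus fed, were -0.17 for Psmb10/Psmb7 (p = 0.657), -0.24 for Psmb8/Psmb5 (p = 0.314) and 0.35 for Psmb9/Psmb6 (p = 0.40) by a two-sided exact permutation test over 70 assignments. Adjusted over the 3 ratios the exact permutation p-values were 0.657, 0.60 and 0.60, and the smallest p this design allows is 0.0286. No difference in these 3 ratios was detectable with 4 libraries a group. Without the acinar-poor libraries the log2 differences were -0.27, -0.40 and -0.10 in the same order. Psmb10 and its counterpart Psmb7 both had lower means in the fasted group.

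Each class was also expressed as a share of all proteasome counts in its library, a measure that again does not depend on the scaling. Immunoproteasome subunits held 16.7, 14.9, 18.1 and 20.1% of the proteasome counts in fed libraries 1, 3, 4 and 5 and 14.1, 12.2, 12.3 and 14.5% in the fasted ones. Every fasted library lay below every fed library, the closest being fasted 5 and fed 3. The means were 17.5 ± 2.23% fed and 13.3 ± 1.20% fasted, a difference of -4.20 percentage points, which ran from -5.07 to -3.31 when 1 library was left out. Without the acinar-poor libraries the fasted mean was 13.4%. Of 9 classes this was the only one whose groups did not overlap. Most of the difference lay in Psmb10, whose mean share was 10.65% fed and 7.215% fasted. Psmb8 had mean shares of 6.61% fed and 5.83% fasted, and Psmb9 of 0.20% fed and 0.21% fasted. The share of each of these genes alone overlapped between the groups. For a single class, a share of 0.0286 of the 70 assignments of libraries to groups separates them, and 9 classes were looked at. The thymus class is Psmb11 alone, with counts only in fed libraries 4 and 5. The separation was not tested.

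The share of the constitutive beta subunits was 29.7, 27.0, 28.1 and 33.2% fed and 38.2, 34.7, 29.5 and 32.7% fasted. The 2 highest shares were those of the acinar-poor fasted libraries, and the groups overlapped. Among single members the share of Psmb1 was the only one to separate: it was 4.04, 3.52, 3.88 and 4.13% fed and 5.82, 4.73, 4.65 and 4.98% fasted. Of the 46 members, 1 was thus higher in every fasted library, against 4.68% of all tested genes set over the same proteasome counts, and 0 were lower, against 0.61%. The share of Psmb10 was 8.61, 8.85, 13.4 and 11.8% fed and 6.71, 5.96, 7.14 and 9.05% fasted, with fasted 5 above fed 1 and 3. A share of a sum also moves with the other members of that sum: Psmb3 held 16.7 and 14.6% of it in fasted libraries 1 and 3, and 7.94 to 11.4% in the other 6 libraries.

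**Figure D4:**
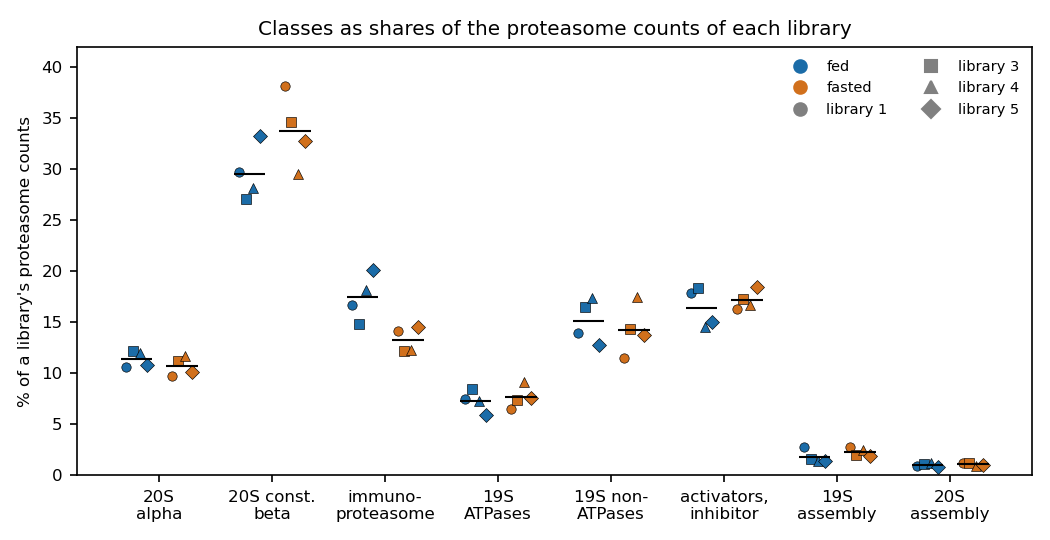
Share of all proteasome counts (percent) held by each class of subunits in each fed and fasted library, with means as bars. The immunoproteasome shares of the fasted libraries (12.2 to 14.5%) lie below those of the fed libraries (14.9 to 20.1%), and the other classes overlap.

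The 17 subunits of the 19S cap had 5 positive and 12 negative values, with a median of -0.26 (0.25 with library totals alone). Psmd14, the metalloprotease of the lid that cuts ubiquitin chains from substrates, was at 37.9, 45.9, 50.6 and 20.2 CPM in fed libraries 1, 3, 4 and 5 and at 16.4, 26.0, 24.0 and 17.8 CPM in the fasted ones. The fasted library was lower in each pair, and the overlap came from fed library 5 alone, which lay between the fasted values. The means were 38.7 ± 13.4 CPM fed and 21.0 ± 4.65 CPM fasted, with a log2 fold change of -0.88 ± 0.32 (unadjusted p = 0.018, adjusted p = 1.00, edgeR). It was -0.89 ± 0.42 without the acinar-poor libraries, -1.09 to -0.72 with 1 library left out and -0.38 with library totals alone.

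Psmd11, a scaffold subunit of the lid, was at 27.2, 30.3, 25.7 and 21.6 CPM fed and at 18.0, 23.2, 21.8 and 17.1 CPM fasted, a log2 fold change of -0.39 ± 0.25. It turned to 0.11 with library totals alone. The non-ATPase subunits as a class had 9 negative values of 11 and a median of -0.31. Psmd13 was at -0.52 ± 0.35, Psmd1 at -0.37, Psmd6 at -0.33, Psmd12 at -0.31 and Psmd2 at -0.26, while the ubiquitin receptor Psmd4 and the scaffold Psmd3 were at -0.04 and -0.03. Without the acinar-poor libraries Psmd6 and Psmd12 turned to 0.17 and 0.35 and Psmd3 to 0.02, while Psmd1 was at -0.16 and Psmd4 at -0.19.

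Psmd7, the partner of Psmd14 in the lid, was at 31.2, 22.1, 33.5 and 32.5 CPM fed and at 26.4, 29.3, 42 and 28.4 CPM fasted, with overlapping groups and a log2 fold change of 0.08 ± 0.26. It was 1 of the 2 positive values among the non-ATPases, the other being Psmd8 at 0.02. Both were higher without the acinar-poor libraries, Psmd7 at 0.25 and Psmd8 at 0.16. Whether the fold changes of Psmd14 and Psmd7 differ was not tested.

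The 6 ATPases that unfold substrates had 3 positive and 3 negative values and a median of -0.07. Psmc4 was at 37.5, 57.8, 42 and 41.8 CPM fed and at 50.1, 43.7, 45.3 and 62.4 CPM fasted, a log2 fold change of 0.17 ± 0.24 (0.26 without the acinar-poor libraries). Psmc5 was at -0.35, Psmc2 at -0.31, Psmc3 at -0.14, Psmc6 at 0.06 and Psmc1 at 0.00. Psmc6 was one of the sparsely counted members, at 0.685 to 13.2 CPM fed and 2.57 to 18.8 CPM fasted, with a standard error of 0.79. Its value without the acinar-poor libraries was 0.52, and that of Psmc1 was 0.16.

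**Figure D5:**
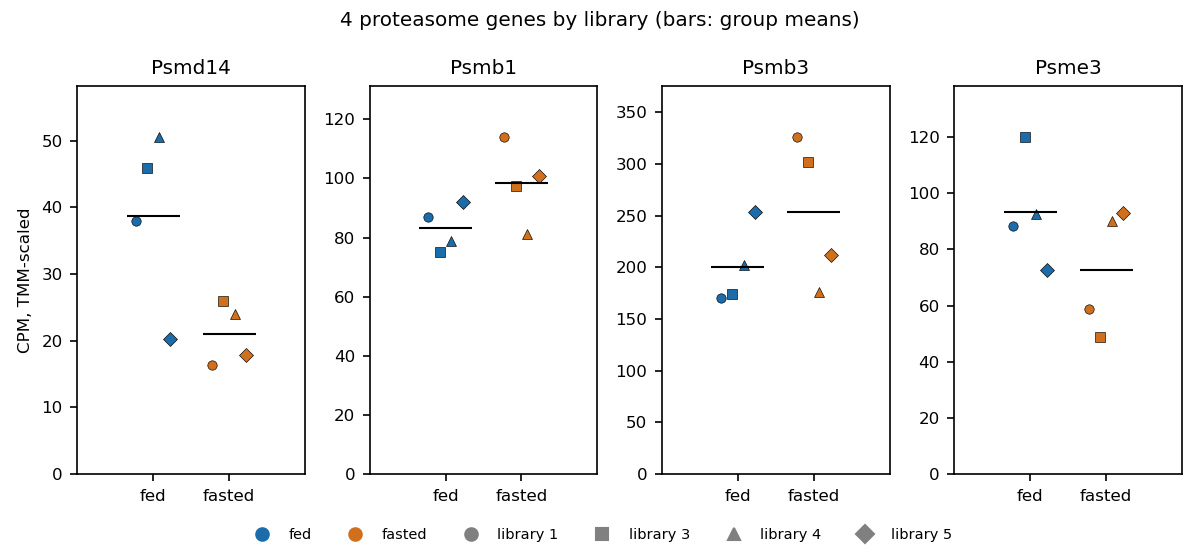
TMM-scaled CPM of Psmd14, Psmb1, Psmb3 and Psme3 in each fed and fasted library, with means as bars and a marker shape for each library number. Fed library 5 of Psmd14 (20.2 CPM) lies within the fasted values, and fasted libraries 1 and 3 are the highest of Psmb3 (327 and 302 CPM) and the lowest of Psme3 (58.7 and 48.8 CPM).

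Activators open the gate of the core, and their 4 genes and the inhibitor Psmf1 had 2 positive and 3 negative values with a median of -0.06 (0.19 with library totals alone). Psme1 and Psme2 encode the chains of PA28, the interferon-inducible cap. Psme1 was at 194, 185, 119 and 197 CPM fed and at 176, 208, 135 and 190 CPM fasted. Library 4 was the lowest in both groups, and the log2 fold change was 0.03 ± 0.23, or -0.10 without the acinar-poor libraries. Exons of Emc9 lie over it on the opposite strand. Psme2 was at 49.5, 44.7, 31.2 and 34.9 CPM fed and at 26.9, 44.7, 22.9 and 34.7 CPM fasted, with a log2 fold change of -0.31 ± 0.28 (-0.48 without the acinar-poor libraries) and overlapping groups.

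Psme3 forms the nuclear cap PA28 gamma. It was at 88.3, 120, 92.6 and 72.6 CPM fed and at 58.7, 48.8, 90.1 and 93.1 CPM fasted, so that the acinar-poor fasted libraries 1 and 3 were the lowest of the 8. The log2 fold change of -0.36 ± 0.27 was -0.03 without them. Psme3 and Psmb3 had values of opposite sign with all libraries and were both slightly negative once those libraries were left out.

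Psme4, the large activator PA200, was at 2.68, 5.14, 4.43 and 2.74 CPM fed and at 1.64, 1.17, 10.5 and 1.33 CPM fasted. Fasted library 4 was above all others, and the other 3 fasted libraries were below all fed ones. The log2 fold change was -0.06 ± 0.74 and became -1.47 without fasted library 4 and 0.64 without the acinar-poor libraries. The inhibitor Psmf1 was at 49.5, 35.5, 48.0 and 27.4 CPM fed and at 55.7, 53.1, 32.8 and 54.6 CPM fasted, with overlapping groups and a log2 fold change of 0.29 ± 0.28, or 0.13 without the acinar-poor libraries.

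Among the chaperones that help to build the cap, Psmd5 was at 12.9, 13.5, 9.75 and 9.25 CPM fed and at 12.9, 18.5, 21.4 and 8.91 CPM fasted. The fasted values spanned the fed ones, and the log2 fold change was 0.44 ± 0.35, or 0.24 without fasted library 4. Psmd10, known as gankyrin, was at 0.36 ± 0.38 and Psmd9 at -0.02 ± 0.43 (-0.38 without the acinar-poor libraries). The chaperones of the core were at -0.35 (Psmg1), -0.07 (Psmg2), 0.05 (Psmg3) and 0.23 (Psmg4), with standard errors of 0.38 to 0.76. Without the acinar-poor libraries Psmg2 was at -1.05, Psmg3 at 0.10 and Psmg4 at 0.15. These 4 genes were measured at 0 to 9.37 CPM in single libraries, which limits what could be detected.

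The members were not closely tied to each other across libraries. As a description over 8 libraries that share their scaling, the correlation of each member with the mean z-score of the others ran from -0.62 to 0.91 with a median of 0.23, and 11 of 46 were above 0.5. The genes outside the set most like its mean z-score were Anxa2 (r = 0.966), Ubqln4 (r = 0.966), Dpysl2 (r = 0.936), Myadm (r = 0.930) and Tmx2 (r = 0.924). They were picked as the highest among all other tested genes over only 8 libraries, so such values are raised by that choice. A shared regulation was not tested. Ubqln4 is a ubiquilin, a shuttle that brings ubiquitinated proteins to the proteasome. It was at 37.5, 42.8, 35.5 and 30.1 CPM fed and at 21.8, 36.3, 25.1 and 27.7 CPM fasted.

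Other genes of the pathway were read from the same fit in 7 lists, and none of them passed the test in either direction. Of 10 tested partners of the particles, 4 were positive and 6 negative, with a median of -0.07. Akirin2, which carries proteasomes into the nucleus, was at 11.2 ± 1.69 CPM fed and 14.2 ± 4.59 CPM fasted with a log2 fold change of 0.35 ± 0.34. It was 0.16 without fasted library 3 and 0.10 without both acinar-poor libraries. Usp14, a deubiquitinase bound to the cap, was at 14.3 ± 5.69 CPM fed and 10.2 ± 7.71 CPM fasted with a log2 fold change of -0.49 ± 0.56. It was -0.32 without the acinar-poor libraries, -1.10 without fasted library 4 and -0.16 when either fed library 4 or fasted library 5 was left out.

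Of 5 tested regulators of proteasome transcription, 1 was positive and 4 negative. Nfe2l1 was at 10.3, 13.9, 12.0 and 9.93 CPM fed and at 7.72, 8.39, 9.40 and 8.72 CPM fasted, so the groups did not overlap, with a log2 fold change of -0.44 ± 0.31 (0.01 with library totals alone). Mafk, a small Maf protein that pairs with Nfe2l1 and Nfe2l2 on DNA, was at 46.8, 37.9, 43.2 and 42.8 CPM fed and at 110, 47.2, 54.9 and 66.9 CPM fasted. These groups did not overlap either, in the other direction. Over all tested genes 1.31% separated in the lower and 2.21% in the higher direction. The log2 fold change of Mafk was 0.71 ± 0.28 (unadjusted p = 0.028, adjusted p = 1.00, edgeR). It was 0.40 without fasted library 1, and the gene did not pass the test.

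Of 4 tested genes of ubiquitin and its activating enzymes, 2 were positive and 2 negative. Rps27a, which encodes ubiquitin fused to a ribosomal protein, was at 376 ± 32.9 CPM fed and 534 ± 101 CPM fasted, with a log2 fold change of 0.51 ± 0.20 (unadjusted p = 0.028, adjusted p = 1.00, edgeR). It was 0.30 without the acinar-poor libraries. Ribosomal protein transcripts held 4.89 to 12.0% of counts in fed and 6.5 to 26.7% in fasted libraries, and their part in the value of Rps27a was not tested.

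Of 7 tested shuttles and segregase genes, 2 were positive and 5 negative, with a median of -0.47. Vcp, the ATPase that extracts ubiquitinated proteins from complexes and membranes, was at 110, 114, 173 and 98.0 CPM fed and at 70.6, 69.1, 102 and 61.6 CPM fasted. Its fasted library was the lower one in each pair, the groups overlapped through fasted library 4, and the log2 fold change was -0.71 ± 0.25 (unadjusted p = 0.018, adjusted p = 1.00, edgeR; -0.17 with library totals alone). The shuttle Rad23b was at 30.0 ± 7.82 CPM fed and 20.2 ± 4.66 CPM fasted, with a log2 fold change of -0.58 ± 0.29, or -0.34 without the acinar-poor libraries.

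Of 10 tested genes of MHC class I antigen processing, 6 were positive and 4 negative, with a median of 0.12. The negative ones included chaperones of the endoplasmic reticulum: Calr was at 150, 189, 205 and 150 CPM fed and at 77.4, 92.5, 116 and 85.7 CPM fasted. The groups of Calr did not overlap, as was so in the lower direction for 1.31% of all tested genes. The log2 fold change was -0.90 ± 0.22 (unadjusted p = 0.0015, adjusted p = 0.50, edgeR). Pdia3 was at -0.79 ± 0.45, while the peptide transporter chain Tap1 was at 0.53 ± 0.32 and the MHC light chain B2m at 0.17. Without the acinar-poor libraries Pdia3 was at -0.32, Tap1 at 0.31 and B2m at 0.0060. Tapbp, H2-K1 and H2-D1, at 0.08, 0.16 and 0.23 with all libraries, turned to -0.28, -0.10 and -0.09. Tap1, Tap2 and B2m stayed positive and the 4 negative genes stayed negative, so the direction of the list depended on those libraries.

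Of 8 tested genes of the interferon gamma path, 4 were positive and 4 negative. The receptor chain Ifngr1 was at 0.63 ± 0.33 (0.23 without the acinar-poor libraries) and Irf1, a transcription factor that acts on immunoproteasome genes, at -0.49 ± 0.34.

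The COP9 signalosome, a complex built on the plan of the 19S lid that removes Nedd8 from cullins, had 2 positive and 7 negative values of 9 with a median of -0.11. Cops2 was at 0.83 ± 0.64, which became 0.05 without fasted library 4 and 1.5 without the acinar-poor libraries, and Cops6 at -0.24 ± 0.30.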

How the data were processed

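ILC2 of pancreatic islets from fed and fasted C57BL/6j mice were profiled with CEL-seq2, per the labels' protocols. The authors deposited whole-number counts per gene, not normalised. STAR, edgeR and the mouse build mm10 are named in the submitters' processing notes; their versions, and whether reads or molecular identifiers were counted and on which strand, are not given in the sources used here. A library's treatment was read from its column name, with control taken as fed. The sequencing files hold both treatments, and 2 further columns were not used here. The table's 11 spike-in rows, with 20 counts in the 8 libraries, were left out.

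The members, classes and gene lists were chosen with earlier results of these data known. Of 15835 genes, 7700 passed filterByExpr and entered edgeR (version 4.0.16, R 4.3.3) with TMM-scaled library sizes. Fasted and fed libraries were compared by the quasi-likelihood test with its robust option (two-sided, Benjamini-Hochberg over all tested genes, threshold 0.05). The common biological coefficient of variation was 0.506. The test was also run on simulated counts with known changes, and the outcome is not given here. No difference in acinar share was built into those counts, so that run cannot speak to such a difference. Fold changes are given as log2 of fasted over fed, with SE, and levels as mean ± SD with n = 4. Exchange ratios used counts plus 0.5. Per-library values are printed for the exchange pairs, the activators and inhibitor, the 3 members of smallest p in each direction, members whose groups do not overlap, and the 2 cap subunits of smallest p in each direction; each pathway list gives its 2 genes of smallest p, some of which are not reported here, and members or genes beyond these were named after their values were seen. The 5 most like genes had the highest Pearson correlation with the members' mean z-score of log2 CPM with a pseudocount of 1. Coordinates come from GENCODE vM21, on the same build.

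Alternatives were DESeq2 1.42.0 and its size factors, limma-voom (limma 3.58.1), library totals, and no filter or at least 10 counts in 6 libraries. Others were acinar marker genes removed, their share as a covariate, a replicate block by library number and each library left out. Values for shares and same-number pairs under other settings were added after seeing the data. Same-number libraries had correlations of 0.25, 0.16, 0.53 and 0.14 of their deviations from the group means, each over 0.1. They were treated as pairs in the side-by-side comparisons and in the replicate block, not in the main fit. Fed 4 with fasted 5 (0.24) and fed 1 with fasted 3 (0.22) exceeded some of these correlations. What the numbers mark is not stated, so these values do not settle whether such libraries were paired. Within a group every pair of libraries differed by more than counting noise, the lowest chi-square per gene being 14.0.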

Additional observations from a re-analysis of the deposited data

Results flagged for a closer look

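A library lying far from the other 3 of its group was found in 8 of 92 groups of 4 values examined, where chance gives about 1 in 20. Psmb9 stood at 8.22 CPM in fed library 5, against 2.68 to 3.38 CPM in the other fed libraries. Psmb10 stood at 183 CPM in fasted library 5, against 123 to 132 CPM, so the fasted library nearest to the fed range was also the one apart from its group. The ratio of Psmb8 to Psmb5 was 2.99 in that same library, against 4.25 to 4.5 in the other fasted ones. Psme1 stood at 119 CPM in fed library 4, against 185 to 197 CPM. Psme4 was at 10.5 CPM in fasted library 4, against 1.17 to 1.64 CPM, and Psmf1 was at 32.8 CPM there, against 53.1 to 55.7 CPM. The deubiquitinase Usp14 was at 22.8 CPM in fed library 4, against 10.4 to 12.0 CPM. The chaperones of the 19S cap held 2.74% of the proteasome counts in fed library 1, against 1.35 to 1.58% in the other fed libraries.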

How the results depend on the processing

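No member passed the test under any alternative. Genes called over the whole table numbered 0 with edgeR, 17 with DESeq2, 1 with library totals alone, 1 without the filter and 0 with limma-voom, and 338, 352 (DESeq2), 729 (limma-voom) and 919 (no filter) had an unadjusted p under 0.05. With library totals alone the medians were 0.29 for all members, 0.24 for alpha, 0.49 for constitutive beta, 0.28 for immunoproteasome and 0.25 for 19S subunits, 0.19 for activators and inhibitor and 0.72 for assembly chaperones, beside 0.51 for all genes; Cops6 turned to 0.40, Nfe2l1 to 0.012, Psmb5 to 0.49, Psmb6 to 0.10, Psmb8 to 0.28, Psmb9 to 0.68, Psmd11 to 0.11, Psme2 to 0.19 and Usp14 to 0.11. Members lower in all 4 pairs numbered 1 with library totals and 5 with totals without acinar marker genes. Members higher in all 4 numbered 6 and 3 in the same order. The activator median was -0.27 with limma-voom and -0.33 with the replicate block. Psmb9 was at 0.28 with limma-voom and 0.0072 with the replicate block, which otherwise turned no named direction. With the acinar share as a covariate Psme1 was at -0.088 and Psme4 at 0.46; without the acinar-poor fasted libraries Psme1 was at -0.10, Psme4 at 0.64, Psmb3 at -0.050 and the Psmb9/Psmb6 log2 ratio at -0.10.

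Leaving out 1 library at a time, the medians ran from -0.20 to -0.15 (all members), -0.39 to -0.25 (alpha), -0.15 to 0.09 (constitutive beta), -0.48 to -0.19 (immunoproteasome), -0.36 to -0.05 (19S), -0.18 to 0.06 (activators) and -0.05 to 0.21 (assembly chaperones). Directions turned within these ranges: Psme4 -1.47 to 0.24, Psmd7 -0.10 to 0.16, Psme1 -0.12 to 0.13, Cops6 -0.47 to 0.012, Psmb9 -0.22 to 0.45, Psmb5 -0.15 to 0.092 and the Psmb10/Psmb7 log2 ratio -0.35 to 0.011. The cause was not tested. Sparsely counted members (Psmc6, Psme4, Psmg3, Psmb9, Psmd12, Psmg2) had standard errors of 0.54 to 0.79, so differences of that size could not be seen in them. Larger ones could be missed too, since Psmb10 at -0.69 ± 0.23 did not pass the test.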
